A study of Mus musculus with 29 samples.

Results

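Transforming growth factor beta (TGF-beta) signalling was followed through 9 genes in brain tissue of mice 21 days after a photothrombotic stroke. The genes are the ligands Tgfb1, Tgfb2 and Tgfb3, the latent binding proteins Ltbp1 and Ltbp2, the receptors Tgfbr1 and Tgfbr2, the signal transducer Smad3 and the secreted matrix protein Tgfbi. They were chosen by name, with earlier results of these data known. Each is the row of the deposited count tables whose Ensembl identifier carries that symbol, which gave 9 of 25746 genes. All 9 passed the filter on low counts and belonged to the 17031 genes tested. The study asked how immunodeficiency or immunosuppression alters the brain after stroke, and RNA was taken from tissue dissected around the lesion in the right sensorimotor cortex.

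The 29 libraries came from mice of both sexes at 3 months of age. Wild-type (WT) mice had a C57BL/6 background and gave 4 non-stroked and 4 stroked samples. Tacrolimus, a calcineurin inhibitor that suppresses T cell activation, was delivered to further stroked WT mice by osmotic pump, either from day 0 after stroke (WT-Tacr acute, 3 samples) or from day 7 (WT-Tacr delayed, 5 samples). Rag2-/- mice, which lack mature T and B cells, gave 3 non-stroked and 3 stroked samples. NSG mice, which have a NOD background and lack natural killer cells as well, gave 4 non-stroked and 3 stroked samples. No group combined tacrolimus with a non-stroked brain, so each tacrolimus group was compared with the same 4 non-stroked WT mice as the stroked WT mice were. The sources differ on whether the non-stroked tissue was the opposite hemisphere or the brain of a naive animal, and the term non-stroked is used for it here.

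TGF-beta ligands are secreted as latent complexes in which the mature dimer stays bound to its own propeptide, and latent binding proteins tether many of these complexes to the extracellular matrix. Once released, the ligand binds the type II receptor Tgfbr2, which recruits and activates the type I receptor Tgfbr1. Tgfbr1 then phosphorylates Smad2 and Smad3, which enter the nucleus with Smad4 in complexes that bind DNA at short elements built on the letters CAGAC. In the brain, TGF-beta is known to maintain the identity of microglia, and after injury it is known to drive fibroblasts to deposit matrix.

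The 250 bases before the annotated start of 5 of these genes are printed here because Tgfb1, Tgfbr1, Tgfbr2 and Tgfbi were all higher after stroke in WT, WT-Tacr delayed and Rag2-/- mice, whereas Tgfb2 was not. The sequences are from RefSeq on GRCm38.p6 and are written 5′ to 3′ along the transcribed strand. Capitals mark the SMAD half-site CAGAC and the SP1 motif GGGCGG, on either strand (GTCTG and CCGCCC in reverse).
Tgfb1, chr7:25686752-25687001 on the plus strand: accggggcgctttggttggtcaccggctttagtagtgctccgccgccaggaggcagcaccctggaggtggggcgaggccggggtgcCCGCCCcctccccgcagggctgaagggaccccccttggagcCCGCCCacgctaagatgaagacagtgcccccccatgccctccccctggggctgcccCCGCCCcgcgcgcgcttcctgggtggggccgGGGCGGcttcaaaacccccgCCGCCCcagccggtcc
Tgfbr1, chr4:47352972-47353221 on the plus strand: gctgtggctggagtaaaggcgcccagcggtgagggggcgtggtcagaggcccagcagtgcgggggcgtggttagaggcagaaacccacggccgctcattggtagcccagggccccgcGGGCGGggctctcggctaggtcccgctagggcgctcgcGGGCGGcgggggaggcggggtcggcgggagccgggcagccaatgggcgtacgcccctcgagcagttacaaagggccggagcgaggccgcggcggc
Tgfbr2, chr9:116175364-116175613 on the minus strand: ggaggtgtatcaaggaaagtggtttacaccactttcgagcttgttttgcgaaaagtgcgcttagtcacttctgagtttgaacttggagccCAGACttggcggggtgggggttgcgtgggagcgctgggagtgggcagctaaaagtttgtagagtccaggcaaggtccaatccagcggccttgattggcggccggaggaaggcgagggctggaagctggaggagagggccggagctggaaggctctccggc
Tgfbi, chr13:56609336-56609585 on the plus strand: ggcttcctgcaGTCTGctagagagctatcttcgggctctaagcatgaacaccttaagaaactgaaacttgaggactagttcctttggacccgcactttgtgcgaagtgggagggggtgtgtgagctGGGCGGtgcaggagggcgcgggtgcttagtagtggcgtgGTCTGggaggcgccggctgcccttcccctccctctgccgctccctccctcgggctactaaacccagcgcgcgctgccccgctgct
Tgfb2, chr1:186705990-186706239 on the minus strand: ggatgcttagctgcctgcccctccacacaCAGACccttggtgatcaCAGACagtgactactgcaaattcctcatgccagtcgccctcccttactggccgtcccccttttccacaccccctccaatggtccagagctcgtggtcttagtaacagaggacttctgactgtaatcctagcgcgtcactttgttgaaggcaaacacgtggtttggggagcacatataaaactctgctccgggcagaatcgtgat

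These windows differed in their letters. The Tgfb1 window held 5 SP1 motifs and no SMAD half-site, with a GC content of 75.2%, and the Tgfbr1 window held 2 SP1 motifs and no half-site, with a GC content of 74.8%. The Tgfbr2 window held 1 half-site, 160 bases before the start. The Tgfbi window held 2 half-sites and 1 SP1 motif, and its RefSeq start lies 63 bases from the start of the gene in GENCODE. The Tgfb2 window held 2 half-sites as well, with a GC content of 53.6%. Of 32851 windows of this length, 42.2% held CAGAC on 1 strand or the other and 32.7% held GGGCGG, and the median GC content was 52.4%. The full palindrome GTCTAGAC was present in 0.167% of windows and the AP-1 motif TGANTCA in 6.75%, and neither was found in these 5. Tgfbr1 has another annotated start, with its window at chr4:47385966-47386215. A match is a run of letters and not a measured binding site.

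The genes lie on 7 chromosomes of GRCm38. Tgfb1 (ENSMUSG00000002603) spans chr7:25687002-25705077, Tgfb2 (ENSMUSG00000039239) chr1:186622792-186705989 and Tgfb3 (ENSMUSG00000021253) chr12:86056745-86079041. Ltbp1 (ENSMUSG00000001870) spans chr17:75005568-75392512 and Ltbp2 (ENSMUSG00000002020) chr12:84783212-84876532. The receptor genes are Tgfbr1 (ENSMUSG00000007613) at chr4:47353222-47414931 and Tgfbr2 (ENSMUSG00000032440) at chr9:116084293-116175360. Smad3 (ENSMUSG00000032402) spans chr9:63646767-63757994 and Tgfbi (ENSMUSG00000035493) chr13:56609523-56639562. The counts are sums over whole genes. Exons of Tgfb2, Tgfb3 and Ltbp2 overlap genes on the opposite strand by 124, 420 and 764 bases. The library kit keeps strand, but whether counting used it is not given in the sources used here, so reads of these overlapping stretches are uncertain.

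The libraries held 17789044 to 43403413 assigned reads. Library names begin with Imm2 for 20 samples and with TF for 9. The TF samples are 2 stroked WT, 2 WT-Tacr acute and all 5 WT-Tacr delayed mice, and were shallower, with a median of 23155303 reads against 37223696. The read counts of the 9 genes ran from 19 (Ltbp2) to 4373 (Smad3) per library. Rag2 had no reads in any Rag2-/- or NSG library and at most 2 in a WT library, so this gene hardly checks the labels. Levels are given as CPM, the reads of a gene scaled to the TMM-adjusted size of its library, and differences as log2 fold changes of the fitted model, with 1 meaning a doubling. Neuronal markers (5 genes) summed to 6740 to 7510 CPM and cortical layer markers (6 genes) to 684 to 807 CPM in non-stroked WT mice, and none of them was at 0 in any library.

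Compared per kilobase of merged exon, Smad3 had the highest level of the 9 genes in non-stroked WT mice, at 14.4 ± 2.19 CPM per kb (SD, n = 4). Tgfb3 followed at 4.46 ± 0.355, Tgfbr1 at 4.01 ± 0.366 and Tgfb2 at 3.41 ± 0.773 CPM per kb, and the mean ± SD ranges of neighbours in this order overlapped. Tgfbr2 had 2.35 ± 0.122 CPM per kb and Tgfb1 had 1.14 ± 0.115. Ltbp1 (0.867 ± 0.089) and Tgfbi (0.865 ± 0.152) could not be separated. Ltbp2 was far below the others at 0.0806 ± 0.016 CPM per kb. With the longest annotated transcript as the length, Tgfbr1 (4.56 CPM per kb) moved ahead of Tgfb3 (4.46), and the rest of the order stayed as above. Tgfbi, next to last without stroke, stood at 3.27 ± 1.53 CPM per kb in stroked WT mice.

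Stroke was accompanied by higher levels of the receptors, of Tgfb1, of Ltbp2 and of Tgfbi, whereas Smad3 and Tgfb2 passed the test in none of the comparisons of stroked with non-stroked mice in which the other genes rose. A gene was called where its Benjamini-Hochberg adjusted p from the quasi-likelihood test of edgeR was below 0.05 over all 17031 genes. Overlap of values between groups is described below for the 9 genes only. Its share over all genes was not computed, so a lack of overlap has no background here. In WT mice 6 of the 9 genes were higher and none lower, where 15.2% of all genes were called higher and 11.6% lower. In WT-Tacr delayed mice 7 were higher, beside 27.6% higher and 27.6% lower among all genes. Stroked Rag2-/- mice had 4 of the 9 genes higher than non-stroked ones, beside 6.71% of all genes (1.53% were lower). Stroked NSG mice had 5, beside 13.0% of all genes (8.89% were lower). In WT-Tacr acute mice no gene of the 9 was higher and 1, Tgfb2, was lower, where 6.18% of all genes were higher and 2.36% lower. DESeq2 called 6, 7, 4, 5 and 1 of them in the same order. The median log2 difference over the 9 genes was 0.83 in WT mice, 1.07 in WT-Tacr delayed, 0.68 in Rag2-/-, 0.55 in NSG and 0.25 in WT-Tacr acute mice, beside medians over all genes between -0.0033 and 0.0299. The NSG median was 0.26 without stroked NSG replicate 2, and the WT-Tacr acute median was 0.09 without acute replicate 3 and 0.44 without acute replicate 2.

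**Figure D1:**
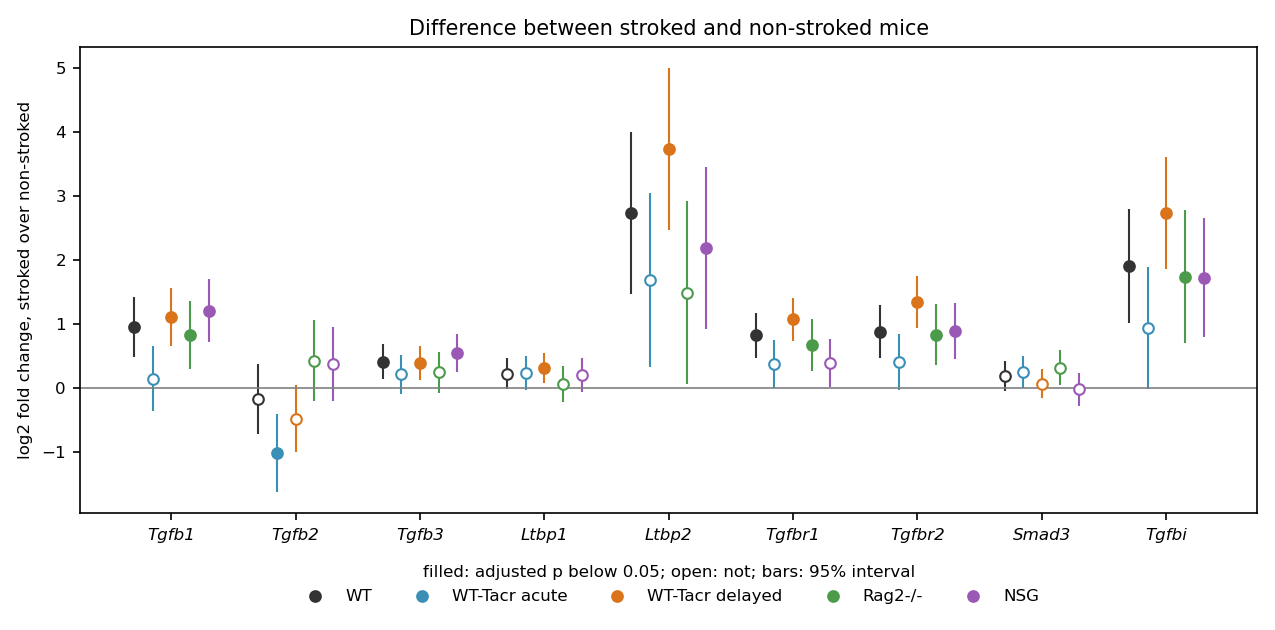
Log2 fold change of stroked over non-stroked mice (vertical axis) for each of the 9 genes, with 1 point per stroked group and bars for the 95% interval; filled points passed an adjusted p of 0.05 and open ones did not. Ltbp2 and Tgfbi have the highest points, at 3.73 and 2.74 in WT-Tacr delayed mice (2.73 and 1.91 in WT mice), and the points of Smad3 are all open, between -0.02 and 0.32.

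Among the ligands, Tgfb1, which microglia and macrophages are known to release, rose the most. It was measured at 6.09, 4.90, 6.12 and 5.91 CPM in non-stroked WT mice and at 12.5, 11.2, 9.39 and 11.3 CPM in stroked WT mice. The lowest stroked mouse lay above the highest non-stroked one, and the difference was 0.95 on the log2 scale (SE 0.228, adjusted p = 0.0037), a 1.93-fold higher level. In WT-Tacr delayed mice Tgfb1 was at 10.1, 11.8, 13.9, 10.6 and 15.97 CPM, again apart from the non-stroked mice (log2 difference 1.11, SE 0.22, adjusted p = 0.000188). The 3 WT-Tacr acute mice had 5.84, 3.16 and 10.2 CPM. They spread from below to above the non-stroked range, and the difference of 0.15 had a 95% interval from -0.36 to 0.66 (adjusted p = 0.722).

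Both immunodeficient strains also had higher Tgfb1 after stroke. Rag2-/- mice had 6.65, 7.05 and 6.19 CPM without stroke and 13.8, 12.3 and 9.35 CPM with it, without overlap (log2 difference 0.83, SE 0.261, adjusted p = 0.0476). NSG mice had 7.58, 7.41, 6.89 and 8.32 CPM without stroke and 14.4, 24.5 and 13.7 CPM with it (log2 difference 1.21, SE 0.239, adjusted p = 0.00106). The stroked NSG mouse at 24.5 CPM (replicate 2) was the highest of all 29 libraries. Without it the difference in NSG mice was 0.89 (adjusted p = 0.0116), and Tgfb1 was then the only one of the 5 genes that still passed. Without the stroked Rag2-/- mouse at 13.8 CPM (replicate 1) the difference in Rag2-/- mice was 0.70 (adjusted p = 0.241), and none of the 4 genes passed. None of them passed either when any 1 of the 3 non-stroked Rag2-/- mice was left out, with adjusted p of 0.131, 0.108 and 0.15 for Tgfb1.

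Tgfb2 took another course. Its values in non-stroked WT mice were 21.0, 13.5, 24.1 and 20.4 CPM and in stroked WT mice 17.7, 23.6, 16.3 and 12.5 CPM. These ranges overlapped widely, and the difference of -0.17 had a 95% interval from -0.72 to 0.38 (adjusted p = 0.665). WT-Tacr acute mice had 9.88, 8.24 and 11.3 CPM, all below the non-stroked and the stroked WT mice. Against non-stroked WT mice the log2 difference was -1.01 (SE 0.298, adjusted p = 0.0375), and it passed in 2 of the 7 fits that left out 1 mouse. It missed without non-stroked replicate 1 (-0.98, adjusted p = 0.0867), replicate 4 (-0.90, adjusted p = 0.0853) or replicate 5 (-0.99, adjusted p = 0.0731), and without acute replicate 2 (-0.92, adjusted p = 0.12) or replicate 3 (-1.13, adjusted p = 0.174). WT-Tacr delayed mice, at 16.3, 11.8, 16.01, 12.2 and 14.7 CPM, overlapped with the non-stroked WT mice (log2 difference -0.48, adjusted p = 0.113).

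Tgfb2 was more scattered in the strains. Rag2-/- mice had 17.1, 16.5 and 18.3 CPM without stroke and 38.4, 17.0 and 14.4 CPM with it. NSG mice had 38.8, 19.9, 31.5 and 23.6 CPM without stroke and 32.8, 52.9 and 25.6 CPM with it. Neither difference passed (0.43, adjusted p = 0.453 and 0.38, adjusted p = 0.339). The 6 choroid plexus markers moved with some of these values: their sum was 1580 CPM in the stroked Rag2-/- mouse with 38.4 CPM of Tgfb2 and 1190 CPM in the non-stroked NSG mouse with 38.8 CPM, but 23.4 CPM in the stroked NSG mouse with 52.9 CPM. It ran from 9.71 to 815 CPM in non-stroked WT mice and from 4.54 to 18.9 CPM in WT-Tacr acute mice. Among the 16 libraries with at most 100 CPM of these markers, a choice made after seeing the data, the difference between WT-Tacr acute and non-stroked WT mice was -0.79 (SE 0.229, adjusted p = 0.219) with 3 and 2 mice.

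Tgfb3 rose by a small step. It was at 14.8, 13.6, 16.4 and 15.6 CPM in non-stroked and at 21.1, 19.9, 17.7 and 21.8 CPM in stroked WT mice, without overlap (log2 difference 0.42, SE 0.135, adjusted p = 0.0247). This call was kept in 5 of 8 fits that left out 1 mouse, and was lost without non-stroked replicate 1 (adjusted p = 0.0599), non-stroked replicate 3 (adjusted p = 0.0727) or stroked replicate 4 (adjusted p = 0.0802). It also passed in WT-Tacr delayed mice (0.39, SE 0.129, adjusted p = 0.0127), whose levels averaged 19.8 ± 2.85 CPM (SD, n = 5), but not without delayed replicate 5 (0.31, adjusted p = 0.0502). In NSG mice the mean went from 13.4 ± 1.27 CPM (n = 4) to 19.6 ± 5.97 CPM (n = 3), a log2 difference of 0.55 (SE 0.144, adjusted p = 0.00908), or 0.26 (adjusted p = 0.144) without stroked NSG replicate 2. Rag2-/- mice, at 15.3 ± 0.740 and 18.2 ± 1.09 CPM (n = 3 each), did not overlap but missed the threshold (0.25, adjusted p = 0.372). WT-Tacr acute mice had 19.2, 14.2 and 19.0 CPM and overlapped with the non-stroked WT mice (0.22, adjusted p = 0.339).

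**Figure D2:**
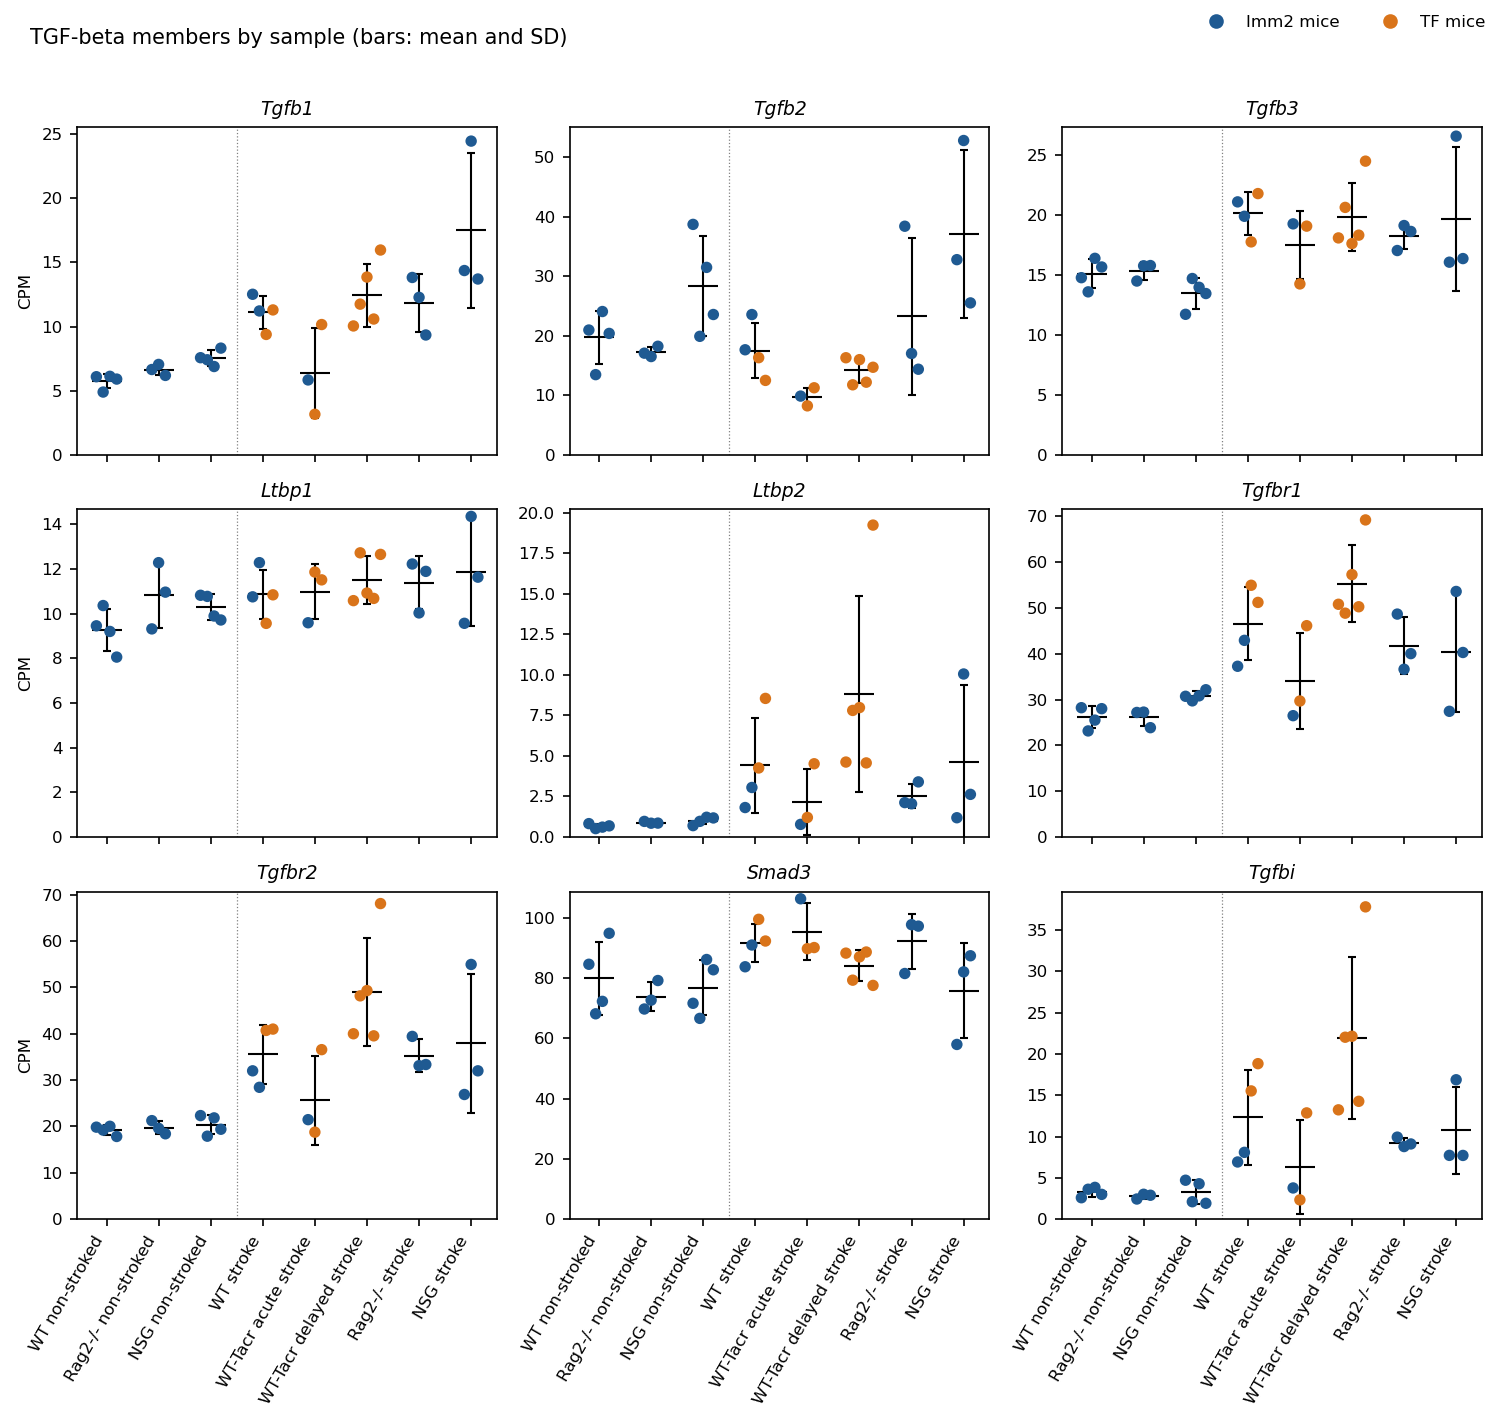
CPM of each of the 9 genes (vertical axis, linear from 0) in the 8 groups, 1 point per mouse, blue for Imm2 and orange for TF libraries, with a dash at the group mean and a bar for the SD; the dotted line divides non-stroked from stroked groups. Tgfb1, Tgfbr1, Tgfbr2, Tgfbi and Ltbp2 lie higher in stroked WT, WT-Tacr delayed and Rag2-/- mice without overlap with their non-stroked mice, and the 3 WT-Tacr acute mice are spread. The share of all genes without overlap was not computed.

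The latent binding proteins differed from each other. Ltbp1, which tethers latent TGF-beta to the matrix, ran from 8.05 to 14.4 CPM over all 29 libraries. Stroked and non-stroked WT mice overlapped, at 10.9 ± 1.11 and 9.27 ± 0.952 CPM (SD, n = 4 each; log2 difference 0.23, adjusted p = 0.157). Ltbp1 passed in WT-Tacr delayed mice, at 11.5 ± 1.08 CPM (n = 5; log2 difference 0.31, SE 0.115, adjusted p = 0.0245), and in no other stroked group. It missed there without non-stroked replicate 5 (adjusted p = 0.0926), delayed replicate 2 (adjusted p = 0.0618) or delayed replicate 5 (adjusted p = 0.0597). Ltbp2 is a matrix protein of the same family that does not bind latent TGF-beta. It was low without stroke, at 0.83, 0.52, 0.61 and 0.69 CPM in WT mice, and stood at 1.82, 3.06, 4.26 and 8.55 CPM in stroked WT mice. All stroked mice lay above all non-stroked ones, and the log2 difference was 2.73 (SE 0.616, adjusted p = 0.00231), or 6.66-fold.

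The spread of Ltbp2 within the stroked groups was wide. WT-Tacr delayed mice had 4.62, 7.81, 7.99, 4.57 and 19.2 CPM, and the log2 difference from non-stroked WT mice was 3.73 (SE 0.613, adjusted p = 2.57e-05), or 3.24 (adjusted p = 9.7e-05) without the mouse at 19.2 CPM (replicate 5). WT-Tacr acute mice had 0.78, 1.21 and 4.52 CPM, of which the first lay inside the non-stroked range (1.69, SE 0.661, adjusted p = 0.1), and without that first mouse the difference was 2.09 (adjusted p = 0.032). Rag2-/- mice went from 0.96, 0.85 and 0.86 CPM to 2.12, 2.05 and 3.40 CPM, without overlap, yet the difference of 1.5 missed the threshold (adjusted p = 0.206). NSG mice went from 0.70, 0.96, 1.22 and 1.18 CPM to 1.19, 10.1 and 2.63 CPM. There the groups overlapped, and the difference of 2.19 (SE 0.617, adjusted p = 0.0135) became 0.89 (adjusted p = 0.299) without the mouse at 10.1 CPM (replicate 2).

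Both receptors were higher after stroke. Tgfbr1, the kinase that phosphorylates Smad2 and Smad3, was at 28.2, 23.2, 25.5 and 28.0 CPM in non-stroked WT mice and at 37.3, 42.9, 54.9 and 51.2 CPM in stroked WT mice. The groups did not overlap (log2 difference 0.83, SE 0.171, adjusted p = 0.00107, 1.77-fold). Tgfbr2, which binds the ligand, was at 19.9, 19.2, 20.04 and 17.8 CPM in non-stroked and at 32.0, 28.5, 40.7 and 41.0 CPM in stroked WT mice. It stood apart as well (0.88, SE 0.201, adjusted p = 0.00245, 1.85-fold). For either receptor the 2 stroked WT mice with TF names were above the 2 with Imm2 names, at means of 53.1 against 40.1 CPM for Tgfbr1 and 40.9 against 30.2 CPM for Tgfbr2.

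In WT-Tacr delayed mice Tgfbr1 was at 50.8, 48.9, 57.3, 50.3 and 69.2 CPM (log2 difference 1.07, SE 0.165, adjusted p = 1.17e-05, 2.11-fold). Tgfbr2 was at 40.01, 48.2, 49.3, 39.6 and 68.1 CPM in the same mice (1.35, SE 0.195, adjusted p = 5.96e-06, 2.55-fold). Every delayed mouse lay above every non-stroked WT mouse for both genes. The WT-Tacr acute mice had 26.5, 29.7 and 46.1 CPM of Tgfbr1 and 21.5, 18.8 and 36.6 CPM of Tgfbr2. In either case 1 of the 3 mice, replicate 3, was near the stroked WT mice and the others were near the non-stroked ones (0.38, adjusted p = 0.182 and 0.41, adjusted p = 0.216).

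Rag2-/- mice had 27.2, 27.3 and 23.9 CPM of Tgfbr1 without stroke and 48.7, 36.6 and 40.02 CPM with it (log2 difference 0.68, SE 0.197, adjusted p = 0.0313). Their Tgfbr2 went from 21.3, 19.6 and 18.4 CPM to 39.4, 33.1 and 33.4 CPM (0.84, SE 0.232, adjusted p = 0.0245). Neither gene overlapped between the 2 groups of Rag2-/- mice. In NSG mice Tgfbr2 passed, going from 22.4, 17.9, 21.9 and 19.4 CPM to 26.9, 55.0 and 32.0 CPM (0.90, SE 0.213, adjusted p = 0.00446). Tgfbr1 did not: 1 stroked NSG mouse, at 27.4 CPM (replicate 1), was below all 4 non-stroked NSG mice, which had 30.7, 29.7, 30.8 and 32.1 CPM, and the other two had 53.6 and 40.3 CPM (0.39, SE 0.182, adjusted p = 0.123). Without that mouse the difference in Tgfbr1 was 0.60 (adjusted p = 0.0264), and without the mouse at 55.0 CPM the difference in Tgfbr2 was 0.52 (adjusted p = 0.0609).

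Smad3, the transducer below the receptors, differed little. It was at 84.7, 68.2, 72.3 and 94.9 CPM in non-stroked and at 83.8, 91.1, 99.6 and 92.4 CPM in stroked WT mice. The ranges overlapped, and the 95% interval of the difference ran from -0.04 to 0.43 on the log2 scale (estimate 0.20, adjusted p = 0.208). The other differences were 0.07 in WT-Tacr delayed (adjusted p = 0.581), 0.26 in WT-Tacr acute (adjusted p = 0.179), 0.32 in Rag2-/- (adjusted p = 0.151) and -0.02 in NSG mice (adjusted p = 0.93). Group means lay between 73.9 ± 4.84 CPM (non-stroked Rag2-/-, n = 3) and 95.5 ± 9.49 CPM (WT-Tacr acute, n = 3).

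Tgfbi, an extracellular matrix protein named for its induction by TGF-beta, passed in 4 of the 5 stroked groups. It was at 2.59, 3.62, 3.84 and 3.0 CPM in non-stroked WT mice and at 6.92, 8.09, 15.5 and 18.8 CPM in stroked WT mice (log2 difference 1.91, SE 0.432, adjusted p = 0.00238, 3.76-fold). The groups were apart, with the 2 TF mice at a mean of 17.2 CPM and the 2 Imm2 mice at 7.50 CPM. WT-Tacr delayed mice had 13.2, 22.0, 22.1, 14.3 and 37.8 CPM (2.74, SE 0.429, adjusted p = 1.5e-05, 6.69-fold). WT-Tacr acute mice had 3.77, 2.33 and 12.9 CPM, so replicate 3 was again the one above the non-stroked range (0.94, SE 0.461, adjusted p = 0.183).

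In Rag2-/- mice Tgfbi went from 2.44, 3.01 and 2.89 CPM to 9.93, 8.78 and 9.10 CPM, a narrow group (log2 difference 1.74, SE 0.505, adjusted p = 0.0312). In NSG mice it went from 4.71, 2.11, 4.28 and 1.92 CPM to 7.72, 16.9 and 7.71 CPM, also without overlap (1.73, SE 0.453, adjusted p = 0.00875). Without the NSG mouse at 16.9 CPM the difference was 1.24 (adjusted p = 0.0613).

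The sums of several sets of cell type markers also differed between stroked and non-stroked mice. The tissue is bulk, so more cells of a type and more RNA per cell cannot be told apart, and the markers' part in the differences was not tested. The 6 fibroblast and meningeal markers summed to 86.8 to 99.2 CPM in non-stroked and 274 to 574 CPM in stroked WT mice. Their sum was 90.0 to 364 CPM (median 114) in WT-Tacr acute and 352 to 1290 CPM in WT-Tacr delayed mice, with the top value in the mouse that also had the most Tgfbi and Ltbp2. In Rag2-/- mice the sums were 93.6 to 112 and 316 to 326 CPM, and in NSG mice 108 to 192 and 209 to 1040 CPM, without and with stroke. The 6 microglia and macrophage markers went from 147 to 169 CPM up to 308 to 400 CPM in WT mice, and were at 188 to 366 CPM (median 197) in WT-Tacr acute and 393 to 508 CPM in WT-Tacr delayed mice. The 5 astrocyte markers went from 1010 to 1190 CPM up to 2070 to 2500 CPM in WT mice. They were at 1160 to 2110 CPM (median 1270) in WT-Tacr acute and 2250 to 2600 CPM in WT-Tacr delayed mice. The neuronal markers were lower, at 4470 to 6240 CPM in stroked WT mice. They were at 5210 to 7430 CPM (median 6890) in WT-Tacr acute and 4040 to 4950 CPM in WT-Tacr delayed mice. The 5 endothelial markers went from 135 to 170 CPM down to 72.9 to 125 CPM in WT mice, and were at 82.3 to 135 CPM in WT-Tacr acute mice. In WT-Tacr delayed mice they were at 114 to 152 CPM (median 117), which overlapped with the non-stroked WT mice. The 4 natural killer cell markers summed to 0.0272 to 0.0569 CPM in non-stroked and 0.275 to 0.417 CPM in stroked WT mice, and to at most 1.93 CPM in any library. The 5 T cell markers summed to 7.94 to 11.4 CPM in non-stroked and 5.78 to 10.6 CPM in stroked WT mice. Most of these reads were of Trbc2, with 77 to 503 per library, whereas Cd3d had none in 17 libraries, Cd3g in 16 and Cd3e in 8.

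**Figure D3:**
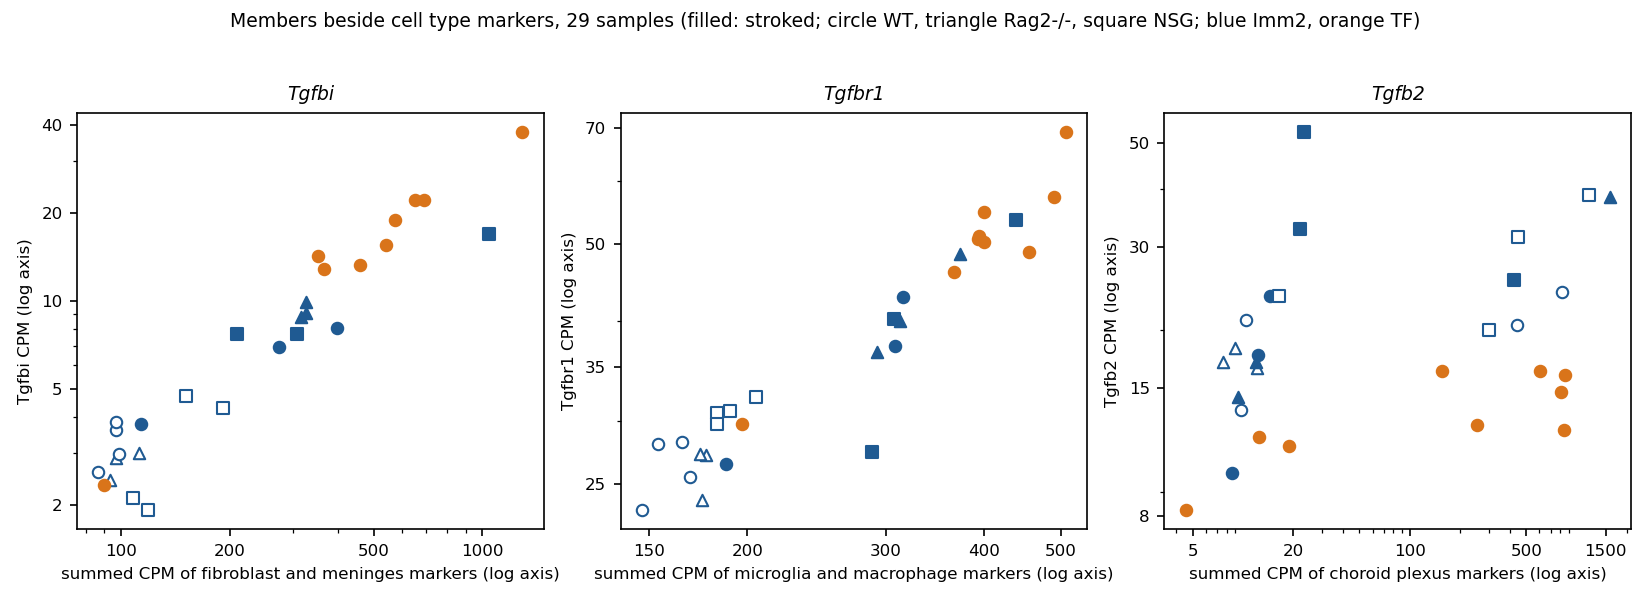
CPM of Tgfbi against the summed CPM of the 6 fibroblast and meningeal markers, of Tgfbr1 against the 6 microglia and macrophage markers and of Tgfb2 against the 6 choroid plexus markers, 1 point per mouse on log axes; filled points are stroked, circles are WT (treated or not), triangles Rag2-/- and squares NSG, and blue is Imm2 and orange TF. Tgfbi and Tgfbr1 are high where their markers are high, with the delayed mouse at 37.8 CPM of Tgfbi also at 1290 CPM of fibroblast markers, whereas for Tgfb2 the highest mouse, at 52.9 CPM, has 23.4 CPM of choroid plexus markers.

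The 2 sets of library names were unevenly spread over the groups. Among the Imm2 libraries alone, with 2 stroked and 4 non-stroked WT mice, 5 of the 6 genes still passed: Tgfb1 (log2 difference 1.05, adjusted p = 0.00225), Ltbp2 (1.89, adjusted p = 0.0401), Tgfbr1 (0.62, adjusted p = 0.0414), Tgfbr2 (0.66, adjusted p = 0.043) and Tgfbi (1.20, adjusted p = 0.0291). Tgfb3 had 0.45 (adjusted p = 0.101). With the name set as a covariate over all 29 libraries, Ltbp2 (1.79, adjusted p = 0.0532) and Tgfbi (1.23, adjusted p = 0.0589) missed the threshold in WT mice. In WT-Tacr delayed mice, all of them TF, that covariate left Tgfb1 (1.16, adjusted p = 0.0304) and Tgfbr2 (0.94, adjusted p = 0.0305) past the threshold, with Tgfbi at 1.61 (adjusted p = 0.061) and Tgfbr1 at 0.63 (adjusted p = 0.0735). No non-stroked mouse has a TF library, so for the delayed group stroke and library set cannot be told apart within TF.

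The timing of tacrolimus was compared directly between the 2 treated groups. WT-Tacr delayed mice had more of 5 genes than WT-Tacr acute mice, where 10.4% of all genes were called higher. Tgfbi differed by 1.80 on the log2 scale (SE 0.457, adjusted p = 0.0125), Tgfbr2 by 0.94 (SE 0.212, adjusted p = 0.0103) and Tgfbr1 by 0.70 (SE 0.179, adjusted p = 0.0129), each without overlap. Ltbp2 differed by 2.05 (SE 0.617, adjusted p = 0.0237), also without overlap, and by 1.55 (adjusted p = 0.082) without delayed replicate 5. Tgfb1 differed by 0.96 (SE 0.243, adjusted p = 0.0123), although the acute mouse at 10.2 CPM lay within the delayed range. Within the TF libraries, which hold 2 acute and all 5 delayed mice, none of the 5 passed, with differences of 0.92 for Tgfb1, 1.64 for Ltbp2, 0.57 for Tgfbr1, 0.85 for Tgfbr2 and 1.54 for Tgfbi (adjusted p from 0.159 to 0.191). With the library name set as a covariate 4 of the 5 passed, namely Tgfb1 (0.97, adjusted p = 0.0333), Tgfbr1 (0.56, adjusted p = 0.041), Tgfbr2 (0.81, adjusted p = 0.033) and Tgfbi (1.48, adjusted p = 0.0376), and Ltbp2 had 1.7 (adjusted p = 0.057). None passed when only these 2 groups were fitted. The calls moved with the acute mice: none passed without acute replicate 1 or without acute replicate 2, with Tgfbi at 1.51 (adjusted p = 0.111) and 1.40 (adjusted p = 0.0984). Without acute replicate 3 all 5 passed with larger differences, Tgfbi at 2.8 (adjusted p = 0.000151), Ltbp2 at 3.16 (adjusted p = 0.00194), Tgfb1 at 1.42 (adjusted p = 0.000132), Tgfbr2 at 1.26 (adjusted p = 0.000184) and Tgfbr1 at 0.96 (adjusted p = 0.000493).

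Against stroked WT mice, none of the 9 genes was called by edgeR in either tacrolimus group, and 0.00% of all genes were. At an unadjusted p below 0.05, 5 of the 9 genes differed between WT-Tacr acute and stroked WT mice, beside 2168 of all 17031 genes. Between WT-Tacr delayed and stroked WT mice 2 of the 9 differed, beside 3455 of all 17031 genes, a share near that over all genes. DESeq2 called none of the 9 in either comparison. The estimates for WT-Tacr acute mice were -0.80 for Tgfb1 (adjusted p = 0.311), -0.84 for Tgfb2 (adjusted p = 0.311), -0.97 for Tgfbi (adjusted p = 0.381), -0.45 for Tgfbr1 (adjusted p = 0.325) and -0.47 for Tgfbr2 (adjusted p = 0.367). Without acute replicate 3 the estimates were larger, and 4 genes were called lower in WT-Tacr acute than in stroked WT mice, namely Tgfb1 (-1.27, adjusted p = 0.00213), Tgfbi (-1.97, adjusted p = 0.0106), Tgfbr1 (-0.72, adjusted p = 0.0197) and Tgfbr2 (-0.81, adjusted p = 0.0247). WT-Tacr delayed mice had 0.83 for Tgfbi (adjusted p = 0.237), 0.46 for Tgfbr2 (adjusted p = 0.192) and 1.0 for Ltbp2 (adjusted p = 0.275).

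The strains were then compared with WT mice. Without stroke, none of the 9 genes was called in Rag2-/- mice (0.00587% of all genes called) or in NSG mice (9.76%), and none had an unadjusted p below 0.05 or was called by DESeq2. In NSG mice the nearest was Tgfb2, at 28.5 ± 8.40 CPM (SD, n = 4) against 19.8 ± 4.47 CPM (n = 4; log2 difference 0.53, adjusted p = 0.235). Tgfb1 (7.55 ± 0.593 against 5.76 ± 0.581 CPM; 0.39, adjusted p = 0.326) and Tgfbr1 (30.8 ± 1.0 against 26.2 ± 2.39 CPM; 0.23, adjusted p = 0.458) did not overlap between these groups. With only the 2 groups in the fit, both passed (adjusted p = 0.0323 for Tgfb1 and 0.044 for Tgfbr1).

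The response to stroke itself, tested as an interaction, was not shown to differ between strains for any of the 9 genes, by edgeR or DESeq2, and none had an unadjusted p below 0.05. The background was 0.00% of genes for Rag2-/- and 0.0294% for NSG mice. The intervals were wide: that of Ltbp2 in Rag2-/- against WT mice ran from -3.14 to 0.66 (estimate -1.24) and that of Tgfbr1 in NSG against WT mice from -0.95 to 0.08 (estimate -0.44). Between stroked Rag2-/- and stroked WT mice none of the 9 genes was called (0.00587% of all genes called; none at an unadjusted p below 0.05, none by DESeq2). Stroked NSG mice had more Tgfb2 than stroked WT mice, at 37.1 ± 14.1 CPM (n = 3) against 17.5 ± 4.59 CPM (n = 4), without overlap (log2 difference 1.08, SE 0.282, adjusted p = 0.0125), where 6.60% of all genes were called higher. Among libraries with at most 100 CPM of choroid plexus markers the difference was 1.06 (SE 0.25, adjusted p = 0.0454), with 2 mice in each group. The call passed in 5 of 7 fits that left out 1 mouse, and missed without stroked NSG replicate 2 (0.74, adjusted p = 0.0856) or stroked WT replicate 4 (0.95, adjusted p = 0.0535). With the library name set as a covariate the difference was 0.94 and did not pass (adjusted p = 0.0639). Tgfb1 in the same comparison had 0.66 (SE 0.237, adjusted p = 0.0678), and 0.81 (adjusted p = 0.0342) without stroked NSG replicate 3.

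The wider pathway was described through 6 lists with 75 further genes, of which 74 were tested. These lists, too, were chosen with earlier results of these data known. Stroked WT mice had 26 of them higher and 4 lower, beside 15.2% of all genes higher and 11.6% lower, with a median log2 difference of 0.17 beside -0.000445 over all genes. These calls were uneven over the lists. Genes known to be induced by TGF-beta in fibroblasts and vascular cells had 11 of 14 higher and none lower (median 1.27). The top members were Timp1, an inhibitor of metalloproteinases (4.78, SE 0.689, adjusted p = 4.5e-05), and the collagens Col3a1 (4.76, SE 0.798, adjusted p = 0.000147), Col1a2 (3.62, SE 0.643, adjusted p = 0.000261) and Col1a1 (3.56, SE 0.675, adjusted p = 0.000502). Col1a1 and Col1a2 are also among the fibroblast markers above. The genes of this list that were not called were Acta2 (0.45, SE 0.271, adjusted p = 0.227), Ccn2 (-0.09, SE 0.168, adjusted p = 0.726) and Ccn1 (-1.0, SE 0.468, adjusted p = 0.113). Of 8 microglial genes known to need TGF-beta signalling, 5 were higher and none lower (median 0.78). Fcrls (1.58, SE 0.24, adjusted p = 6.51e-05), Tmem119 (1.09, SE 0.109, adjusted p = 1.2e-06), the receptor Gpr34 (0.92, SE 0.234, adjusted p = 0.00556) and Olfml3 (0.92, SE 0.169, adjusted p = 0.000373) led this list. Its genes that were not called were P2ry12 (0.09, SE 0.128, adjusted p = 0.641), Slc2a5 (0.09, SE 0.131, adjusted p = 0.635) and Sall1 (0.34, SE 0.167, adjusted p = 0.132).

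Of 16 other ligands of the superfamily 3 were higher and none lower (median 0.05), a share of higher genes near the 15.2% over all genes: Bmp5 (1.02, SE 0.336, adjusted p = 0.0271), Gdf10 (0.91, SE 0.272, adjusted p = 0.0161) and Bmp6 (0.79, SE 0.25, adjusted p = 0.0213). Of 10 tested genes of latency and activation 3 were higher and none lower (median 0.10). They were Emilin1, a matrix protein that binds the ligand precursor (1.96, SE 0.392, adjusted p = 0.000802), Thbs1, which can activate latent TGF-beta (1.78, SE 0.558, adjusted p = 0.0205), and Nrros, which holds latent Tgfb1 on microglia (1.36, SE 0.182, adjusted p = 2.5e-05). Itgb6, an integrin subunit that activates latent TGF-beta on epithelium, had at most 6 reads in any library and was not tested.

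For the other receptors and the SMAD regulators the shares of higher and lower genes were near those over all genes (15.2% and 11.6%). Of 12 other receptors and coreceptors 2 were higher and 2 lower (median 0.07). Cd109, a coreceptor that dampens the signal, had 2.24 (SE 0.409, adjusted p = 0.000357) and the pseudoreceptor Bambi 1.02 (SE 0.197, adjusted p = 0.000587), whereas the BMP receptor Bmpr2 had -0.58 (SE 0.129, adjusted p = 0.00205) and the endothelial coreceptor Eng -0.56 (SE 0.167, adjusted p = 0.0154). Of 14 other SMADs and regulators 2 were higher and 2 lower (median -0.12). Tgif1, a repressor of SMAD targets, had 1.91 (SE 0.395, adjusted p = 0.0011) and Smad5, a BMP transducer, 0.39 (SE 0.145, adjusted p = 0.0454). Zfyve9, which brings Smad2 and Smad3 to the receptor, had -0.36 (SE 0.0963, adjusted p = 0.00837), and the inhibitory Smad7 -0.34 (SE 0.114, adjusted p = 0.0307). In NSG mice Smad7 was instead higher after stroke (0.37, SE 0.122, adjusted p = 0.0303). It was also higher in stroked NSG than in stroked WT mice (0.66, SE 0.122, adjusted p = 0.000626).

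**Figure D4:**
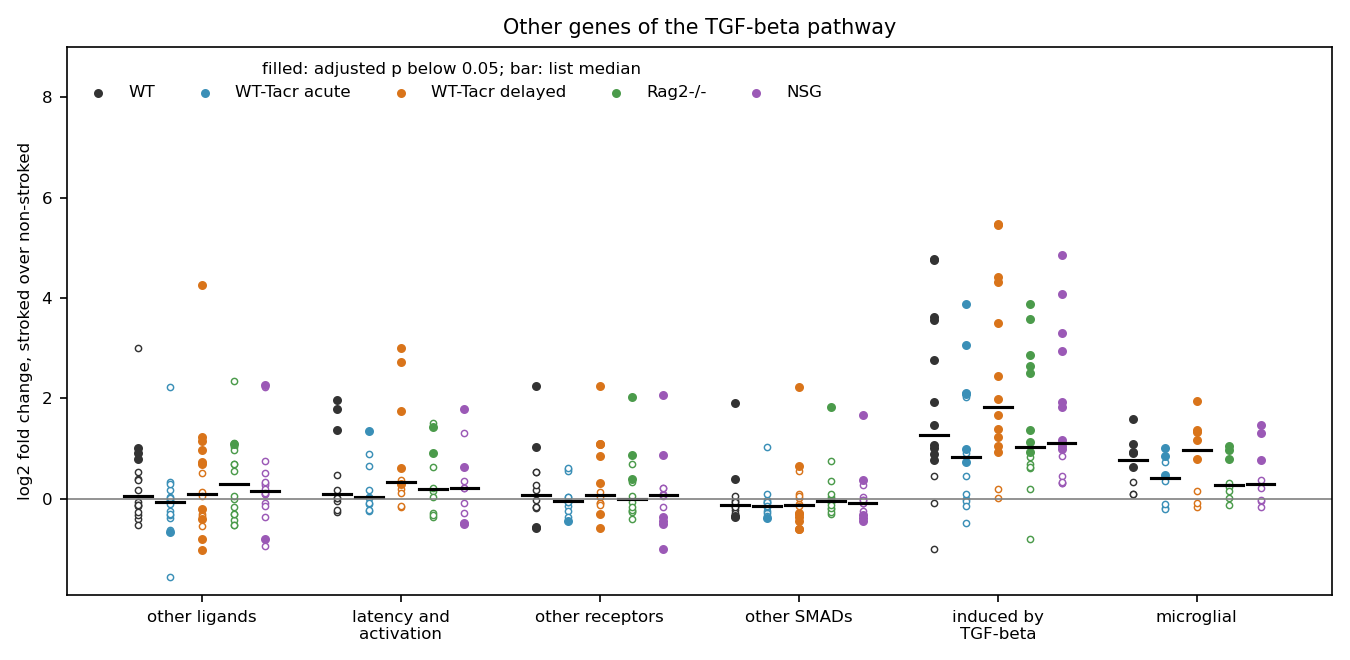
Log2 difference between stroked and non-stroked mice of the genes of 6 pathway lists in the 5 stroked groups, 1 point per tested gene and a bar at each list's median; filled points passed an adjusted p of 0.05. The TGF-beta-induced genes sit highest, with medians of 1.27 in WT, 0.83 in WT-Tacr acute, 1.83 in WT-Tacr delayed, 1.03 in Rag2-/- and 1.12 in NSG mice.

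The other stroked groups are given by the same counts. WT-Tacr delayed mice had 35 of the 74 genes higher and 12 lower (27.6% and 27.6% of all genes; median 0.30, all genes 0.00358), with 12 of the 14 induced genes and 5 of the 8 microglial genes higher. Their other SMADs and regulators had 2 higher and 6 lower, and their other ligands 6 higher and 4 lower. Rag2-/- mice had 18 higher and none lower (6.71% and 1.53% of all genes; median 0.22, all genes -0.0033). NSG mice had 19 higher and 10 lower (13.0% and 8.89% of all genes; median 0.21, all genes 0.0299). In either strain 3 microglial genes were higher, and 8 of the induced genes were higher in Rag2-/- and 9 in NSG mice. Not all of these were called in WT mice: Ccn1, at -1.0 and not called there, was higher in NSG mice (1.92, SE 0.501, adjusted p = 0.00851). The interaction test of NSG against WT mice called none of the 74 genes higher, Ccn1 and Smad7 included. WT-Tacr acute mice had 10 higher and 3 lower (6.18% and 2.36% of all genes; median -0.03, all genes 0.0121), 6 of the higher ones among the induced genes and 3 among the microglial ones. With the library name set as a covariate, the higher calls fell to 16 in WT, 12 in WT-Tacr delayed and 2 in WT-Tacr acute mice. In Rag2-/- mice they fell to 5 without stroked replicate 1, and to 7, 11 and 7 without non-stroked replicates 1, 2 and 4. In WT-Tacr acute mice they fell to 2 without acute replicate 3 and to 4 without non-stroked replicate 1. With only the groups compared in the fit they were 28 in Rag2-/- and 1 in WT-Tacr acute mice. WT, WT-Tacr acute and WT-Tacr delayed comparisons share the 4 non-stroked WT mice, so their counts are not independent of each other.

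Genes whose levels followed the 9 most closely were ranked by Pearson's r of log2 CPM over all 29 libraries, which share groups and depth, and r is a description. For Tgfbi they were Emilin1 (r = 0.983, and 0.944 after the group means were subtracted), Col1a2 (0.977 and 0.931) and Ctsc (0.975 and 0.912). For Tgfbr2 they were Lcp1 (0.982 and 0.938), Plek (0.982 and 0.929) and Emilin1 (0.982 and 0.932). For Tgfbr1 they were Abca9 (0.976 and 0.918), Nckap1l (0.973 and 0.939) and Abca1 (0.971 and 0.918). These genes followed the receptors within groups as well as between them. For Ltbp2 they were Fstl1 (0.966 and 0.886), Nckap1l (0.964 and 0.914) and Ccl8 (0.959 and 0.88), and for Tgfb1 Creg1 (0.952 and 0.887), Arap1 (0.938 and 0.861) and Serpinf1 (0.934 and 0.812).

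The remaining 4 genes had other neighbours. Tgfb2 was followed by Gdf11 (0.912 and 0.766), Gpc4 (0.911 and 0.821) and Ust (0.906 and 0.781), and Tgfb3 by Mfap2 (0.875 and 0.72), Cmklr1 (0.857 and 0.702) and Plekha2 (0.85 and 0.689). Smad3 had Per2 (0.806 and 0.786), Lyst (0.757 and 0.698) and Ets2 (0.754 and 0.714) as its nearest genes, and Ltbp1 had Shc4 (0.712 and 0.722), Gbgt1 (0.665 and 0.535) and C1qtnf2 (0.656 and 0.492), the lowest values of the 9. Among the 9 genes themselves, Tgfbr2 and Tgfbi had r = 0.97 (0.881 after the group means were subtracted), Ltbp2 and Tgfbr1 0.952 (0.864) and Tgfbr1 and Tgfbr2 0.944 (0.851). Smad3 and Tgfb1 had r = 0.0155 (-0.0301).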

How the data were processed

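RNA of 29 mouse brain samples was sequenced by the authors' facility after polyA selection with a stranded kit, and the authors deposited raw counts of reads per gene for each sample. The aligner, counting tool, genome build and strand setting are not given in the sources used here. Names and positions are from GENCODE M21 (GRCm38), which matched 25712 of 25746 identifiers. Promoter windows are from RefSeq (GRCm38.p6).

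Counts were fitted with edgeR 4.0.16 in R 4.3.3 (quasi-likelihood test, TMM, filterByExpr by group) as 1 model of 8 groups with 14 contrasts. A call is a Benjamini-Hochberg adjusted p below 0.05 over 17031 genes. SE is the absolute log2 difference divided by the square root of F. CPM are TMM-adjusted, and log2 CPM has a prior count of 2. Tested on simulated counts for the comparison of stroked with non-stroked WT mice (16771 genes), the fit recovered 79 of 100 genes changed by a log2 of 1 and 91 of 100 changed by 2, and 8.6% of its 186 calls were false, above the 0.05 aimed at. This was 1 simulated set, with few changed genes and no effect of the library name sets. The data had 15.2% of genes called higher and 11.6% lower in this comparison, so these rates need not hold for them. Alternatives were DESeq2 1.42.0, RLE scaling, other filters, a minimum log2 difference of 1, library name sets as a covariate or alone, only the groups compared, and leaving out each mouse.

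Each sample is taken as 1 mouse, and p-values measure the spread between these samples. No pair of samples of a group agreed within sampling noise (lowest chi-square per degree of freedom 7.95). The non-stroked mice share replicate numbers, but same-numbered mice did not deviate together in all pairs, so the numbers were not used for pairing. Genes named from each pathway list are up to 4 with the largest absolute log2 difference among those called in WT mice and up to 2 in the rarer direction, and for each of the 9 genes the 3 with the highest r are named. Also named are the induced and microglial genes not called in WT mice, Itgb6, and Ccn1 and Smad7 for NSG mice. The genes and lists were chosen with earlier results of these data known. All value columns were used.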

Additional observations from a re-analysis of the deposited data

Results flagged for a closer look

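One value stood apart from its group. Ltbp2 was at 19.2 CPM in WT-Tacr delayed replicate 5, farther from the other 4 mice than Dixon's 95% limit allows. Of 36 groups of values examined this was 1, and chance gives about 1 in 20. The fibroblast and meningeal markers of this mouse summed to 1290 CPM, the highest sum of the delayed group, and their part in the value was not tested.

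The difference from non-stroked WT mice was larger in WT-Tacr delayed than in WT-Tacr acute mice for 5 genes. On the log2 scale the gap was 0.96 for Tgfb1 (edgeR adjusted p = 0.0123), 2.05 for Ltbp2 (adjusted p = 0.0237), 0.698 for Tgfbr1 (adjusted p = 0.0129), 0.938 for Tgfbr2 (adjusted p = 0.0103) and 1.80 for Tgfbi (adjusted p = 0.0125). Both groups have the same non-stroked mice, so these gaps equal the direct difference between the treated groups. The acute group has 1 Imm2 and 2 TF libraries and the delayed group 5 TF libraries, and none of the gaps passed within the TF libraries, where they were 0.92 for Tgfb1, 1.64 for Ltbp2, 0.57 for Tgfbr1, 0.85 for Tgfbr2 and 1.54 for Tgfbi. With the library name set as a covariate 4 of the 5 passed, all but Ltbp2 (1.7, adjusted p = 0.057).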

How the results depend on the processing

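No value of the 9 genes called in the main analysis reversed under an alternative, and of 1955 gene-level comparisons 1865 kept their side of the threshold, 78 lost it and 12 gained it. Most of the 1955 were of genes not called in the main analysis, whereas only called genes could lose the threshold. Called genes passed in as few as 1 of 6 fits that left out 1 mouse (Tgfb1 and Tgfbi in Rag2-/- mice). Others passed in all such fits, as Tgfb1 did in WT mice (8 of 8). With a minimum log2 difference of 1 the genes called were 2 in WT, 1 in Rag2-/-, 3 in NSG mice and 2 between delayed and acute tacrolimus. With the library name set as a covariate they were 0 in WT-Tacr acute and 2 in WT-Tacr delayed against non-stroked WT mice and 0 in stroked NSG against stroked WT mice. In the Imm2 libraries alone they were 0 for the first and 0 for the last of these, and in the TF libraries alone 0 between delayed and acute tacrolimus. With only the groups compared in the fit they were 0 in WT-Tacr acute mice, 2 in NSG mice, 2 between non-stroked NSG and WT mice, 0 between delayed and acute tacrolimus and 0 between stroked NSG and WT mice. Leaving out 1 mouse gave 5 to 6 calls in WT, 5 to 7 in WT-Tacr delayed, 0 to 2 in WT-Tacr acute, 0 to 3 in Rag2-/- and 1 to 6 in NSG mice. The range was 0 to 4 between WT-Tacr acute and stroked WT mice, 0 to 5 between delayed and acute tacrolimus and 0 to 2 between stroked NSG and WT mice. The cause of these changes was not tested. Same-numbered non-stroked mice had correlations of 0.132 in both Rag2-/- and WT pairs and -0.27, 0.133 and -0.183 in NSG and WT pairs. With 2 pairs, deviations from the group means mirror each other, so the Rag2-/- and WT pairs give only 1 value. Among only the same-numbered mice of these groups (2 pairs and 3 pairs), 0 and 0 of the 9 genes were called with a replicate block and without it, and adding the block changed the calls over all genes from 1 to 36 and from 1121 to 859. The 3 to 5 mice per group limit what can be seen: intervals of Ltbp2, the gene with the fewest reads, span over 3 on the log2 scale for an interaction.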
